A study of Mus musculus with 26 samples.

Results

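The transcription factors Gata3, Rora, Id2, Bcl11b, Tcf7, Ets1, Gfi1, Tox, Zbtb16 and Nfil3 are transcriptional regulators known from the lineage of group 2 innate lymphoid cells (ILC2s). They were taken from the count tables by the gene symbol of each Ensembl identifier, and all 10 of them were found among 55401 identifiers. ILC2s are lymphocytes without an antigen receptor that live in tissues such as the lung and release type 2 cytokines. They arise from a lymphoid progenitor in steps: Nfil3, Id2, Tox, Ets1, Tcf7 and Zbtb16 act in the precursors shared by innate lymphoid cells, while Gata3, Rora, Bcl11b and Gfi1 set and hold the ILC2 identity. Id2 has no DNA-binding domain and works by capturing E proteins, whereas the other 9 bind DNA.

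RNA was measured by bulk sequencing in 26 libraries from age-matched female mice. In the first experiment, ILC2s were sorted from unchallenged lungs of 3 naïve C57BL/6J mice and 3 naïve CC030/GeniUnc (CC030) mice, 1 library per mouse, after enrichment on CD25 beads, as lineage-negative cells positive for CD90, CD127, CD25 and ICOS. In the second, cells of 5 CC030 mice, gated on CD90, CD127 and ST2 on another sorter, were cultured at 3000 cells per well in human IL-2 at 100 U/mL plus TSLP and IL-33, each at 10 ng/mL, with DMSO vehicle or 10 uM AR420626, an agonist of the short-chain fatty acid receptor FFAR3, and harvested at day 2 and day 6. C57BL/6J is the strain of the reference genome, and CC030 is an inbred strain of the Collaborative Cross, a mouse panel derived from several founder strains. All cultured cells, vehicle included, received the 3 cytokines, and neither cultured C57BL/6J cells nor uncultured cells of the second sort are among the libraries analysed here.

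The counts of the strains do not have the same footing, and this bears on every value of CC030 given here. C57BL/6J reads were aligned to mm10, and CC030 reads to an mm9 pseudogenome whose alignments were then converted to mm10 positions. In C57BL/6J, 13533363 to 15234305 counts per library fell in genes, spread over 15946 to 16553 genes. Naïve CC030 libraries had 1324595 to 1524751 counts at 43527 to 46111 genes, and cultured libraries 227445 to 5320028 counts at 19356 to 44975 genes. In the cultured libraries 2.66% to 12.3% of the uniquely aligned reads fell in genes, with a median of 5.58%. Whether the counts under a gene's name in CC030 lie where that gene lies is taken up in the check of positions after the naïve values. The naïve C57BL/6J libraries are described first for that reason.

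The genes lie on 7 chromosomes of GRCm38. Gata3 is at chr2:9857078-9890034, Id2 at chr12:25093799-25097140, Bcl11b at chr12:107910403-108003602, Tcf7 at chr11:52252371-52283014, Gfi1 at chr5:107716657-107726036, Tox at chr4:6686353-6991557, Zbtb16 at chr9:48654297-48836222 and Nfil3 at chr13:52967209-52981073, all on the minus strand. Rora at chr9:68653786-69388246 and Ets1 at chr9:32636221-32757820 are on the plus strand. Exonic length ran from 2026 bases for Nfil3 to 13071 for Rora, and Gata3, Rora, Gfi1 and Tox share 82 to 260 exonic bases with a neighbouring annotated gene, so reads there cannot be assigned to one of them.

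Of the 10 transcription factors, 7 have a start site in the RefSeq promoter table of build GRCm38.p6 (9 start sites in all), and Ets1, Tox and Zbtb16 have none. In the 250 bases before the start, the share of G and C ran from 44.8% at Bcl11b to 81.6% at Nfil3, against a median of 52.4% over all 32851 promoters in the table. The GATA word (AGATAA or AGATAG, and likewise TGATAA or TGATAG) was found on either strand in 26.5% of all promoters and before 1 of the 9 start sites, that of Rora. The E-box CAGGTG, the word bound by the E proteins that Id2 captures, was in 17.2% of all promoters and before 1 of the 9, at Gfi1. The GC box GGGCGG was in 32.7% of all promoters and before 5 of the 9, and CCAAT was in 33.9% of all promoters and before those of Id2 and Nfil3. A match is a description of these letters and not a bound site. Several windows overlap annotated exons. In that of Gata3 and the Gfi1 window with the E-box, 0 of the 250 bases lay upstream of every overlapping exon. That number was 62 at Bcl11b, 89 at Id2, 67 at 1 Tcf7 start site and 216 at Nfil3. It was 250 at Rora and at the other start sites of Gfi1 and Tcf7. The promoter of Rora (chr9:68653536-68653785, plus strand) is shown for its GATA word, which is in capitals, and that of Nfil3 (chr13:52981074-52981289, minus strand, cut where the annotated exon begins) for its repeated GC boxes, which are in capitals together with 1 CCAAT word read on the opposite strand.
Rora: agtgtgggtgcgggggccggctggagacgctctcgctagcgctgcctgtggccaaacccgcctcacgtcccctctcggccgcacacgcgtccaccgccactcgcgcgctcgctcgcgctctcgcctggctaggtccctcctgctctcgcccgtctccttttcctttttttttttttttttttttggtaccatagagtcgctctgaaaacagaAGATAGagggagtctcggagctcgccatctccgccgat
Nfil3: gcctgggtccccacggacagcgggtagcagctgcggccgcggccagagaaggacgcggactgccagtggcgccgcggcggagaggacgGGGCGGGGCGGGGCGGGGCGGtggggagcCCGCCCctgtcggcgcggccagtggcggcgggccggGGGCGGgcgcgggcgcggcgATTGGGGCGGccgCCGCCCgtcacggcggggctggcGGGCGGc

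In naïve C57BL/6J ILC2s, Id2 was by far the most abundant of the 10. Levels were compared between genes as CPM (counts scaled to a fixed library total) after TMM scaling of the 3 libraries, divided by the exonic length of the gene in kb (CPM per kb). Id2 was at 2247, 2832 and 1434 CPM per kb in replicates 1 to 3, a mean of 2171 ± 702 (SD, n = 3), above 99.9% of the 11003 protein-coding genes with at least 10 counts on average. Gata3, the factor without which ILC2s do not form, followed at 50.7, 55.5 and 66.6 CPM per kb, a mean of 57.6 ± 8.18 (SD, n = 3). Every library of Id2 lay above every library of Gata3, and the ratio of the means was 37.7. Ets1, which promotes the growth of ILC2s and their precursors, came next at 24.1 ± 3.31 CPM per kb (SD, n = 3), below Gata3 in each library and without overlap. Rora, a nuclear receptor needed for ILC2 development, averaged 18.3 ± 10.5 CPM per kb (SD, n = 3), with 222, 111 and 383 CPM in the individual libraries. Its lowest library, replicate 2, was below and its highest, replicate 3, above all of the Ets1 values, so that Ets1 and Rora could not be ordered.

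The remaining 6 factors were expressed at lower levels, and most of their neighbours overlapped. Nfil3, a basic leucine zipper factor of the earliest innate lymphoid precursors, was at 10.6 ± 2.87 CPM per kb (SD, n = 3). Bcl11b, a zinc finger protein that keeps ILC2s from turning into other types, was at 5.00 ± 1.26 CPM per kb and Tox, a chromatin-binding factor of early innate lymphoid precursors, at 4.58 ± 0.827 (SD, n = 3 each). Gfi1, a repressor that maintains the response to IL-33, was at 5.40, 6.01 and 1.06 CPM per kb, a mean of 4.16. Tcf7, the Wnt effector TCF-1, averaged 4.04 ± 4.57 CPM per kb (SD, n = 3). Its mean was carried by replicate 2, with 43, 332 and 69 counts in the 3 libraries, and Gfi1 was low in replicate 3, with 219, 260 and 58 counts. Zbtb16, which encodes PLZF and marks the innate lymphoid precursor, was close to absent, with 6, 4 and 0 counts. The 0 in replicate 3 allows up to 0.197 CPM, taken as 3 of its counts in genes, for counting error only. This near absence set Zbtb16 apart from Tcf7 by 83.6 times in the means, with no overlap.

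**Figure D1:**
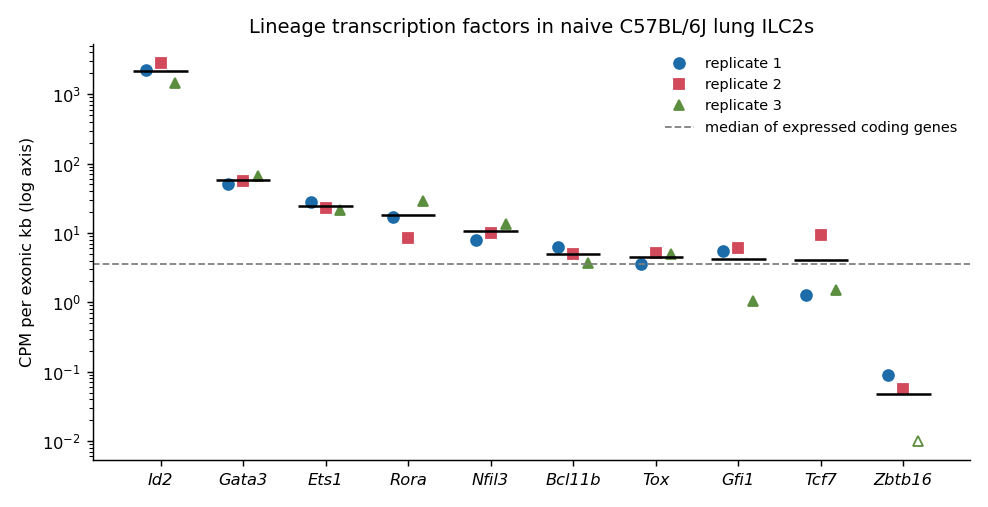
Levels of the 10 transcription factors in naïve C57BL/6J lung ILC2s, as CPM per exonic kb on a log axis. Symbols are the 3 libraries, black lines their mean, the dashed line the median of 3.60 over expressed protein-coding genes, and the open symbol a library with 0 counts drawn at the foot of the axis. Id2, Gata3 and Ets1 stand in the same order in every library, while Bcl11b, Tox, Gfi1 and Tcf7 overlap.

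Of the 9 pairs of neighbours in the order of the means, 4 did not overlap (Id2 and Gata3, Gata3 and Ets1, Nfil3 and Bcl11b, Tcf7 and Zbtb16), and 5 did. Bcl11b, Tox, Gfi1 and Tcf7 could not be ordered among themselves. Without replicate 3, Gfi1 averaged 5.71 and Tcf7 5.30 CPM per kb and both moved above Tox, and only 6 of the 10 kept their place. The first 5 places and the last were the same under every scaling, gene length and omitted library tried.

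Replicate 3 of C57BL/6J differed from the others in the markers of lung epithelium and of macrophages, and replicate 1 in some T cell markers. The 11 ILC2 markers (such as Icos, Il7r and Il2ra) summed to 3944, 3709 and 3235 CPM in replicates 1 to 3, and the 5 markers of NK cells and ILC1s were at 0 counts in all 3. The 5 markers of lung epithelium and endothelium summed to 63.7, 42.9 and 10080 CPM, nearly all of the last from Sftpc, a surfactant gene with 1, 4 and 172153 counts. The 6 macrophage and neutrophil markers summed to 0.157, 13.6 and 859 CPM, mostly from Lyz2, with Itgam, S100a8 and S100a9 at 0. The 6 T cell markers summed to 695, 790 and 288 CPM, mostly as Cd3g, with Cd8a and Cd8b1 at 0. Replicate 1 was the highest for Cd3d, with 1270, 57 and 23 counts, for Cd3e, with 191, 86 and 35, and for Cd4, with 91, 1 and 0. The mast cell and basophil markers summed to 439, 708 and 182 CPM, mostly as Cpa3, with Mcpt8 and Ms4a2 at 0. B cell markers reached 10.6, 31.3 and 74.3 CPM. The ILC3 markers as a whole were not at 0: Il23r had 14, 0 and 0 counts, while Il22 and Ncr1 were at 0. The sort had excluded CD3 and FceRI on the surface. In CPM, replicate 3 was the highest of the 3 for Rora, Gata3 and Nfil3 and the lowest for Id2, Ets1, Bcl11b, Gfi1 and Zbtb16, and the part of these other cells in those values was not tested.

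Each factor was compared with listed paralogues of its family, and 9 of the 10 had a higher mean than all of theirs. The list does not hold every relative: Elf1, given below with other ILC2 factors, was at 27.0 CPM per kb, above the 24.1 of Ets1. Over the 27 paralogues, the highest in each family was below the listed factor in all 3 libraries in 7 families, and in 5 of these the ranges were apart. Gata3 was 50.7 times the next family member Gata1, whose 143 counts came from replicate 3 alone, while Gata2 had 15, 1 and 7 counts and Gata4, Gata5 and Gata6 had none. Id3, a related inhibitor of E proteins, was the next in the family of Id2 at 11.7 CPM per kb and uneven, with 145, 53 and 816 counts. Bcl11a, the paralogue of Bcl11b used in B cells, had 0, 1 and 0 counts, and Gfi1b had the same.

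In most other families the margin was small or absent. Ets1 exceeded Fli1, at 12.8 CPM per kb, by 1.88 times and without overlap, with Ets2 at 3.73 and Erg at 0.106 CPM per kb. In the family of Rora, Rorb had 1 count in each library. Tcf7 averaged 3.61 times Lef1, with overlap, and Tcf7l1 had 2, 0 and 115 counts, so that in replicate 3 it was at 1.70 CPM per kb beside 1.53 for Tcf7. Nfil3 overlapped with its relatives Dbp (8.53 CPM per kb) and Hlf (4.94) but not with Tef (1.66), all of which bind the D-box word, and Tox overlapped with Tox4 (3.57 CPM per kb) but not with Tox2 (0.701) or Tox3 (0.294). The exception was Zbtb16, at 0.0507 times the level of Zbtb7a in the means and below it in all 3 libraries, with Zbtb7b at 0.484 and Zbtb32 at 0.374 CPM per kb.

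**Figure D2:**
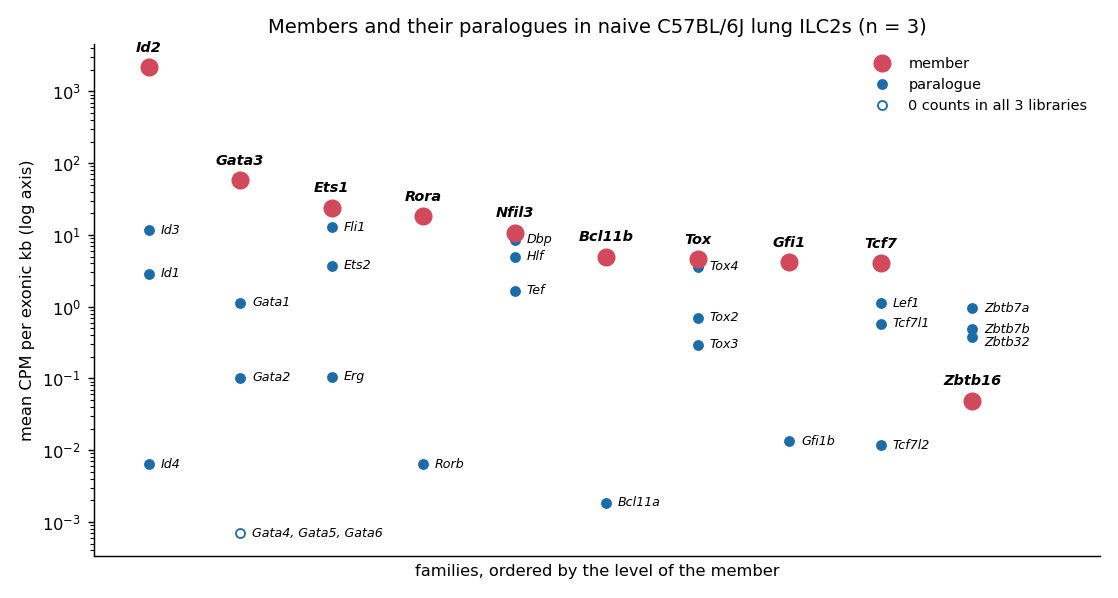
Mean level of each transcription factor (large red points) and of its paralogues (small blue points) in naïve C57BL/6J ILC2s, as CPM per exonic kb on a log axis (n = 3 libraries). Each column is a factor with its listed paralogues, and the open point marks Gata4, Gata5 and Gata6, at 0 counts in all 3 libraries. The red point is the highest of its column in 9 of the 10 columns and the lowest for Zbtb16.

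The E proteins that Id2 antagonises were all low beside it: Tcf12 was at 3.30, Tcf3 at 0.922 and Tcf4 at 0.307 CPM per kb, against 2171 for Id2. Of 33 other factors known from ILC2s or their precursors, 24 had at least 10 counts in all 3 libraries. The 4 with the highest CPM were Klf6 (259 ± 85.8), Elf1 (182 ± 46.2), Hes1 (162 ± 19.5) and Maf (159 ± 49.5 CPM, SD, n = 3 each), beside Gata3, Rora and Ets1 at 229, 239 and 204 CPM. Of 18 factors of other lineages, 5 were at 0 throughout. Foxp3, the factor of regulatory T cells, had 238, 9 and 136 counts, and Spi1, the myeloid factor PU.1, had all of its 206 counts in replicate 3.

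In the naïve CC030 libraries the order seen in C57BL/6J was not present. The 10 factors lay between 2.96 (Gata3) and 11.5 CPM per kb (Tcf7), here with CPM of all counts in genes, a 3.87-fold range, whereas Id2 exceeded Tcf7 alone by 547-fold in C57BL/6J. Their median of 7.32 CPM per kb was close to the median of 7.15 over all 21897 protein-coding genes in the same libraries. Raw counts were 7 to 125 per factor and library, with a median of 45.5.

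Between the strains, the 4 factors highest in C57BL/6J were lower under their names in CC030, and Zbtb16 was higher. Id2 was at 5149, 6502 and 3948 CPM of counts in genes in C57BL/6J and at 13.6, 30.0 and 25.6 in CC030, with no overlap. The log2 fold change was -9.04 (SE 0.632, adjusted p = 0.000446, edgeR). Ets1 was at 222, 184 and 206 CPM against 21.9, 26.7 and 34.8, a log2 fold change of -4.07 (SE 0.390, adjusted p = 0.00046, edgeR). Every C57BL/6J library lay above every CC030 library for Id2, Ets1, Gata3 and Rora. Rora differed least among these, with 209, 104 and 432 CPM against 92.1, 70.7 and 82.0 and a log2 fold change of -2.73 (SE 0.499, adjusted p = 0.00123, edgeR), and Gata3, at 189, 208 and 299 CPM against 18.9, 4.67 and 11.8, fell by 5.48 on the log2 scale (SE 0.582, adjusted p = 0.00046, edgeR). Zbtb16 went the other way, from 0.443, 0.277 and 0 to 43.0, 51.3 and 32.1 CPM, a log2 fold change of 6.12 (SE 1.25, adjusted p = 0.00218, edgeR).

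Thus 4 of the 10 passed as lower, where 12.2% of the 35551 genes tested did, and 1 of the 10 as higher, where 64.1% did. The median log2 fold change was -1.19 over the 10 factors and 7.03 over all genes tested. All 10 factors lay below that median, from -0.91 (Zbtb16) to -16.06 (Id2) relative to it. This depended on the genes tested. With at least 10 counts required in every library, 7223 genes were left, of which 1635 passed as higher and 1938 as lower, and their median was 0.02. Relative to that median Id2 was at -8.24, Ets1 at -3.27, Rora at -1.92, Nfil3 at -0.55 and Bcl11b at -0.22, while Tcf7 (1.09), Gfi1 (0.75) and Tox (0.16) lay above it, and Gata3 and Zbtb16 were not tested. The other 5 did not pass in the fit: Bcl11b (log2 fold change -1.02, adjusted p = 0.0655), Nfil3 (-1.36, 0.0626), Tox (-0.65, 0.222), Gfi1 (-0.04, 0.965) and Tcf7 (0.29, 0.777, edgeR). On the CPM scale, the factors that passed did not overlap between the strains, and neither did Gfi1 and Tcf7, which were higher in each CC030 library. The share of all genes without such overlap was not computed, so this is a description only. Tcf7 depended on replicate 2 of C57BL/6J, without which its log2 fold change was 1.71 (adjusted p = 0.023, edgeR), while it was -0.54 without replicate 1 and -0.56 without replicate 3. Without replicate 3 Bcl11b passed as lower at -1.61 (adjusted p = 0.00651, edgeR). Nfil3 passed as lower without replicate 1 (-1.71), 2 (-1.48) or 3 (-1.57) of C57BL/6J, with adjusted p of 0.0225, 0.0406 and 0.0264 (edgeR).

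**Figure D3:**
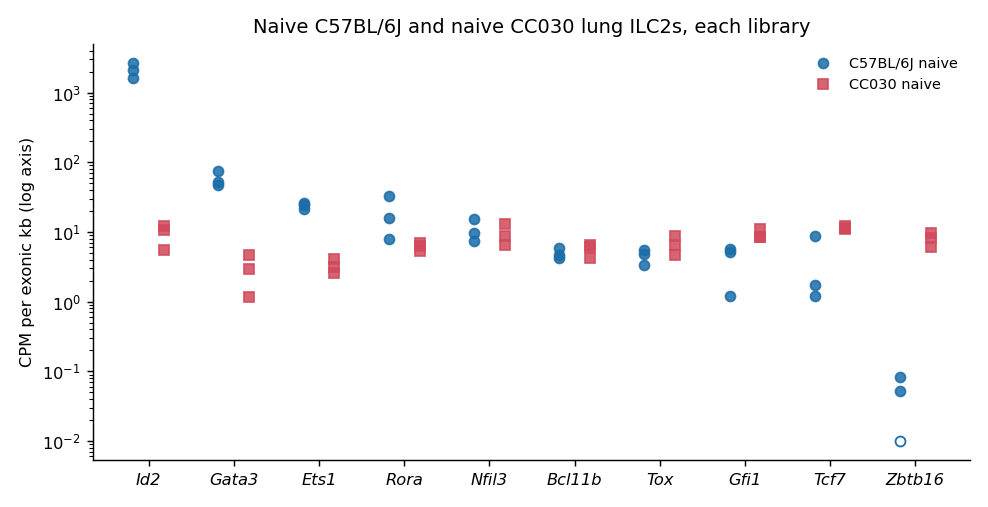
The 10 transcription factors in naïve C57BL/6J (blue circles) and naïve CC030 libraries (red squares), as CPM of counts in genes per exonic kb on a log axis, 3 libraries per strain. The open circle is a library with 0 counts. The C57BL/6J values run over several orders of magnitude, and the CC030 means lie between 2.96 and 11.5.

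Other lists were compared in the same way. Of the 33 other ILC2 factors, 11 passed as lower in CC030 and 5 as higher, with a median log2 fold change of -0.38. Of the 17 factors of other lineages that could be tested, 12 passed as higher, among them Tbx21 and Eomes of NK cells and Pax5 of B cells, and none as lower, beside the 64.1% of all genes that passed as higher. Their median log2 fold change of 6.04 lay below the 7.03 of all genes. Of the 27 paralogues, 11 passed as higher and 3 as lower, and of the 3 E proteins Tcf3 and Tcf4 passed as higher. As a sum, the markers of the sorted cell were lower under their names in CC030. The 11 ILC2 markers summed to 3493 to 3707 CPM of counts in genes in C57BL/6J and 203 to 236 in CC030. Ptgdr2, 1 of the 11, passed as higher (log2 fold change 6.61, adjusted p = 0.0023, edgeR). The 5 NK cell and ILC1 markers were at 0 in C57BL/6J and at 58.9 to 78.0 in CC030. The T cell markers summed to 325 to 744 CPM of counts in genes in C57BL/6J and 161 to 201 in CC030, the mast cell and basophil markers to 205 to 667 and 29.3 to 58.4, and the macrophage and neutrophil markers to 0.148 to 970 and 148 to 216. Single T cell and mast cell markers went both ways. Cd3g (log2 fold change -5.23), Cpa3 (-7.03) and Fcer1a (-2.37) passed as lower, and Cd8a (9.80), Mcpt8 (7.95) and Ms4a2 (8.95) as higher (edgeR). A lower level per cell and fewer cells of a type cannot be told apart in bulk RNA, and here neither can be told apart from the strain's separate alignment.

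To see whether the counts around each factor sat at the place where the C57BL/6J profile puts them, C57BL/6J levels of the genes within 4 Mb were moved along the chromosome by up to 3 Mb and correlated with CC030 counts at each shift. This is a description over neighbouring genes, which share libraries and length. The best of many shifts cannot fall below the value at no shift, and no value expected by chance was computed, so a higher correlation is not evidence that a shift is real. With the 20 cultured libraries, the best shift was within 5 kb for 4 factors (Gata3, Id2, Bcl11b and Tox) and beyond it for 6. The correlation of log2 values was 0.348 at no shift and 0.659 at the best shift of 186.4 kb around Tcf7, 0.406 and 0.645 at 147.15 kb around Rora, and 0.414 and 0.697 at -101.35 kb around Nfil3. It was 0.426 and 0.634 at -429.05 kb around Gfi1, 0.410 and 0.557 at 191.4 kb around Zbtb16 and 0.468 and 0.594 at 210.55 kb around Ets1.

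The size of these shifts depended on the measure, more for some factors than for others. Counts and exonic length go together in the CC030 libraries, and once length was adjusted for, a form chosen after the data were seen, the best shift lay beyond 5 kb for all 10, and the median correlation was 0.118 at no shift and 0.619 at the best. For Nfil3 and Gfi1 the shifts of the length-adjusted form, -101.35 and -428.95 kb, were the same or nearly the same as in the first form. With a window of 2 Mb in the first form they were -83.85 and -420.45 kb. In naïve CC030, the first form gave 1.75 kb for Nfil3 and -578.8 kb for Gfi1. For Gata3 the shift went from -0.9 to 83.55 kb, and to -2417.95 kb in a window of 2 Mb (correlation 0.670), and for Bcl11b from 1.05 to -1237.15 kb. In the naïve CC030 libraries 7 of the 10 had the best shift within 5 kb, and the length-adjusted correlation reached only 0.264 to 0.352 at the best shift.

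**Figure D4:**
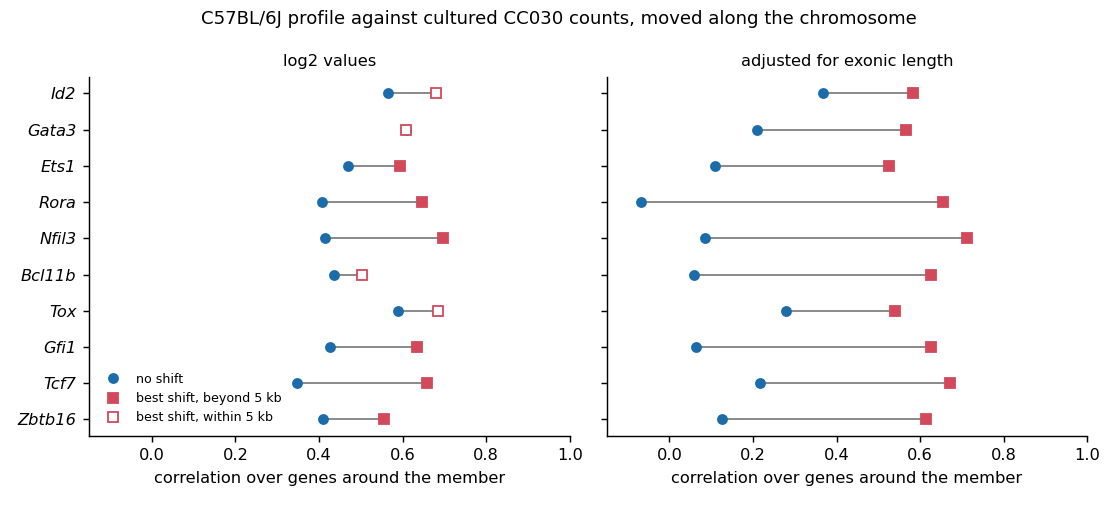
Correlation over genes within 4 Mb of each transcription factor between the naïve C57BL/6J profile and the counts of the 20 cultured CC030 libraries, at no shift (blue circles) and at the best shift (squares, filled where it lies beyond 5 kb). The left panel uses log2 values and the right panel values adjusted for exonic length. On the right all 10 best shifts lie beyond 5 kb.

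At these shifts named neighbours met the exons of the factors. At -429.05 kb, 522 of the 3187 exonic bases of Gfi1 fell on Gm7118 and 220 on Gm8190. Gm7118 had 0 counts in all 3 C57BL/6J libraries, 3 to 18 in naïve CC030, 410 in vehicle at day 2 of mouse 5, and 53 to 192 in vehicle at day 6. In the length-adjusted form, at 83.55 kb, 830 bases of Taf3, a subunit of the general transcription factor TFIID, fell on the exons of Gata3, and at 197.45 kb exons of Ets1 fell on Gm37082 (327 bases) and Fli1 (66 bases). In the first form at 191.4 kb, exons of Zbtb16 fell on Rexo2 (171 bases), and exons of Usp28 (408 bases) and Htr3a (79 bases) fell on those of Zbtb16. At 147.15 kb, Gm7802 (213 bases) and Ice2 (79 bases) met the exons of Rora, and at 210.55 kb Gm27162 (444 bases) met those of Ets1. At the shifts under 1 kb, Gm13256 and Gm11802, which overlap Gata3 and Tox in the annotation, met them again. For Id2, Bcl11b, Tcf7 and Nfil3 no annotated gene met the exons at either form's shift. The values of cultured CC030 below are given under the names in the file, and their source was not settled by this check.

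In culture, the question was what AR420626 did to cells of the same mouse. At day 6, the counts named Gata3 were lower with AR420626 and those named Ets1 higher. Gata3 was at 60.8, 32.7, 38.0, 140 and 75.3 CPM (TMM over the 20 libraries) with vehicle in mice 1 to 5 and at 19.2, 11.6, 18.5, 18.6 and 15.6 with AR420626. All 5 pairs were lower and the groups did not overlap, and the log2 fold change was -1.57 (SE 0.331, adjusted p = 0.00154, edgeR with mouse as block). The exact two-sided sign-flip test of the 5 paired differences gave p = 0.0625, the smallest it can give. Raw counts behind these were 67, 38, 35, 144 and 74 with vehicle and 16, 17, 14, 15 and 14 with AR420626. With mice 1 to 3 alone, added after the data were seen, the log2 fold change was -1.26 (adjusted p = 0.107, edgeR), and Gata3 passed in the other 10 alternatives.

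Ets1 was at 9.07, 11.2, 10.9, 17.5 and 3.05 CPM with vehicle and at 12.0, 21.8, 33.1, 23.6 and 26.7 with AR420626. It was higher in 5 of 5 pairs, with overlap between the groups, and the log2 fold change was 1.51 (SE 0.497, adjusted p = 0.045, edgeR). Of 10 alternatives it passed in 2, with DESeq2 size factors and without the mouse as block, and it did not pass with any of the 5 mice left out, at adjusted p of 0.0589 to 0.201 (edgeR). Without mouse 5 its log2 fold change was 1.15. Rora (log2 fold change -0.05, SE 0.425) and Tox (0.28, SE 0.397) did not pass, at adjusted p = 0.957 and 0.68 (edgeR).

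Only these 4 of the 10 had enough counts to be tested at day 6, so that 1 of 4 passed as lower, where 8.14% of the 9421 genes tested did, and 1 of 4 as higher, where 3.30% did. The median log2 fold change was 0.12 over the 4 and 0.10 over all genes tested. Among the 6 that were not tested, Bcl11b had 0, 4, 8, 2 and 6 counts with vehicle and 10, 16, 7, 18 and 20 with AR420626, and was higher in CPM in 5 of 5 pairs. Gfi1 had 10, 16, 10, 2 and 4 against 0, 8, 2, 1 and 2 counts and was lower in 5 of 5 pairs. For each of them the exact test of the pairs gave p = 0.0625, the smallest it can give. Both counts of pairs depended on the TMM scaling. As CPM of all counts in genes, Gfi1 in mouse 4 was at 0.585 with vehicle and 0.835 with AR420626. On that scale Bcl11b in mouse 3 was at 6.997 with vehicle and 6.329 with AR420626, and the other pairs of both kept their direction. Without mouse 3 Bcl11b reached the filter on counts and passed as higher, the only alternative in which it did. Nfil3 was higher in 4 of 5 pairs and at 0 in both libraries of mouse 5. Id2 had only 0 to 4 counts in each day 6 library, and neither Tcf7 nor Zbtb16 moved one way in all pairs. In the same comparison Runx1 (log2 fold change 1.96, adjusted p = 4.8e-07) passed as higher and Klf6 (-1.70, adjusted p = 1.12e-05) and Zfpm1 (-1.87, adjusted p = 9.9e-05, edgeR) as lower among the 23 other ILC2 factors tested. These 3, like Pparg below and the factors of other lineages named above as higher in CC030, were chosen after their values were seen. Gm7118, on which bases of Gfi1 fell in the check of positions, had 86, 92, 53, 192 and 89 counts with vehicle and 27, 85, 43, 34 and 30 with AR420626. The ILC2 markers summed to 23.4 to 60.8 CPM of counts in genes with vehicle and 44.2 to 98.6 with AR420626. In the median they were below the NK cell and ILC1 markers with vehicle (51.4 against 68.2) and with AR420626 (66.6 against 83.8).

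**Figure D5:**
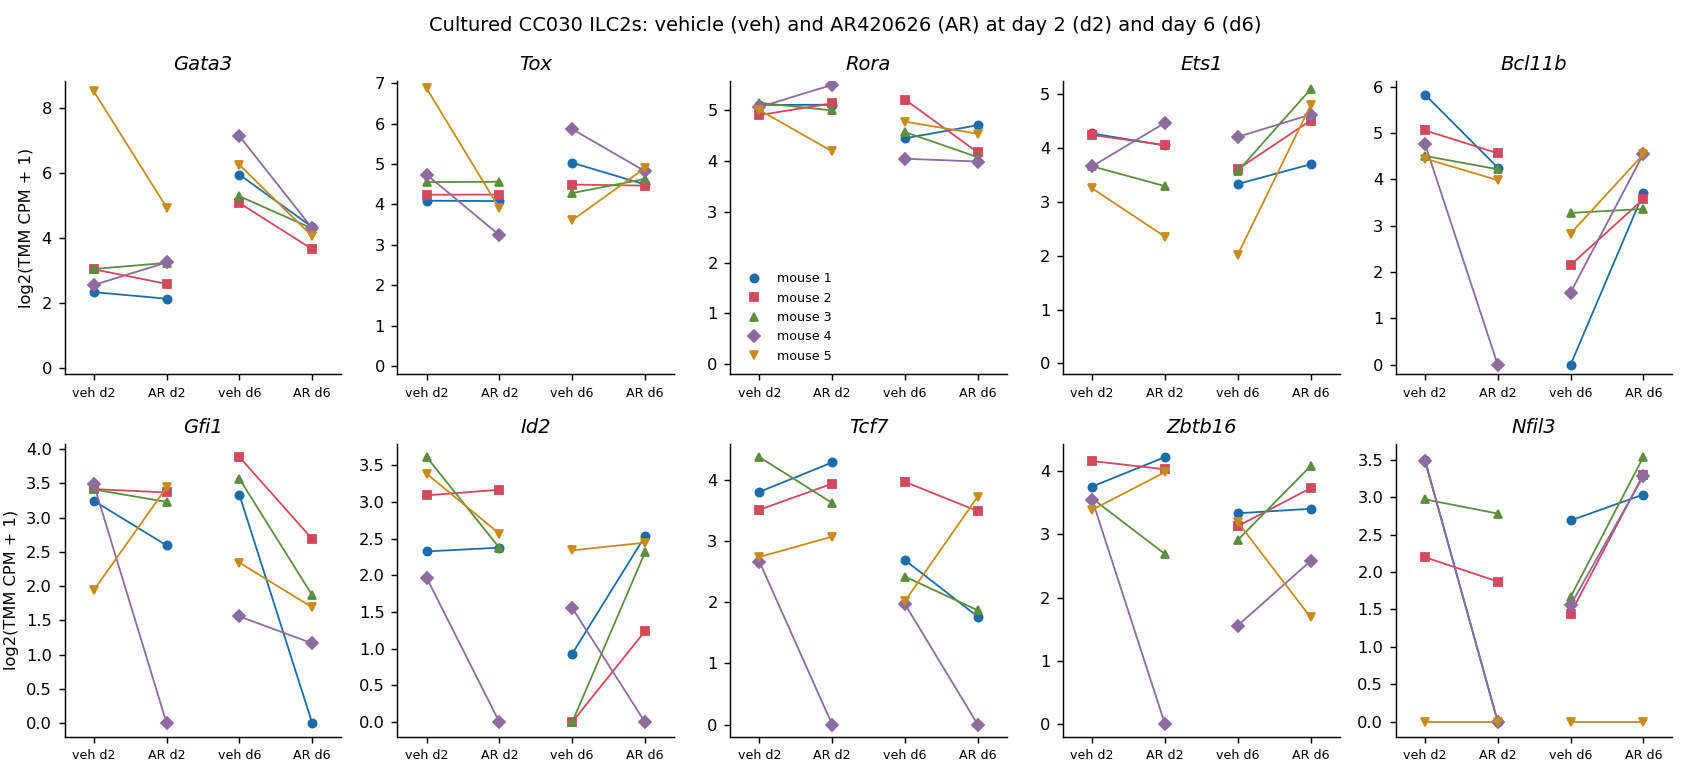
The 10 transcription factors in cultured CC030 ILC2s, as log2(CPM + 1) with TMM over the 20 libraries. Each symbol and colour is a mouse, and lines join vehicle and AR420626 of the same mouse and day. On this TMM scale, at day 6 all 5 lines fall for Gata3 and Gfi1 and rise for Ets1 and Bcl11b. Mouse 5 stands apart for Gata3 and Tox with vehicle at day 2.

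At day 2, AR420626 and vehicle were not told apart for any of the factors. Of the 10, 8 were tested and 0 passed, as did 0% of the 20865 genes tested (edgeR). Over all genes 403 had an unadjusted p under 0.05, and DESeq2 called 31, none of them among the 10 factors. Log2 fold changes ran from -1.16 (Bcl11b, SE 0.604) to -0.09 (Rora, SE 0.448), against a median of -0.22 over all genes. Bcl11b was at 55.8, 32.3, 21.7, 26.2 and 20.8 CPM with vehicle and 18.1, 22.6, 17.6, 0 and 14.8 with AR420626, lower in 5 of 5 pairs (exact p = 0.0625, the smallest it can give, and adjusted p = 1 from edgeR). This direction depended on the TMM scaling. As CPM of all counts in genes, mouse 2 was at 35.1 with vehicle and 58.1 with AR420626, and mouse 5 at 4.135 and 17.6. On that scale only mice 1, 3 and 4 were lower with AR420626. The 0 of mouse 4 comes from the library with 227445 counts in genes, where 0 counts allow up to 13.2 CPM of counts in genes.

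Mouse 5 stood apart in several day 2 values. Gata3 with vehicle was at 4.02, 7.17, 7.23, 4.85 and 365 CPM, so that mouse 5 stood far above the others, and with AR420626 at 3.36, 4.99, 8.38, 8.46 and 29.6 CPM. Its log2 fold change of -0.69 became 0.02 without mouse 5 and -2.98 without the mouse as block, and passed in neither. Tox showed the same mouse apart, at 16.1 to 25.7 CPM in mice 1 to 4 and 116 in mouse 5 with vehicle. That library held 5320028 counts in genes, the most of all cultured libraries, and a count at 32347 genes, the fewest of its group. The scaling bears on these values: as CPM of all counts in genes, Gata3 in mouse 5 was at 72.6 against 7.54 to 15.8 in the other 4, and Tox was at 23.1 against 19.5 to 49.2, inside their range.

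Whether AR420626 acted differently at day 6 than at day 2 was tested over all 20 libraries, with 9 of the 10 factors tested and 0 passing, where 0.0519% of the 23141 genes did. Bcl11b had a log2 difference of 3.05 (SE 0.898), with an unadjusted p of 0.00162 and an adjusted p of 0.416 (edgeR), and passed with DESeq2 (adjusted p = 0.0389). For Gata3 the log2 difference was -0.63 (SE 1.02, adjusted p = 0.994, edgeR), so that its change at day 6 was not shown to differ from that at day 2. For Ets1 it was 1.46 (SE 0.722, adjusted p = 0.937, edgeR).

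The comparisons between the days use the same libraries as those between the treatments. Between day 2 and day 6 with vehicle, Bcl11b passed as lower and the 6 other factors tested did not pass. It was at 55.8, 32.3, 21.7, 26.2 and 20.8 CPM at day 2 and at 0, 3.44, 8.69, 1.94 and 6.11 CPM at day 6, lower in 5 of 5 mice with no overlap, although as CPM of all counts in genes mouse 5 was at 4.13 at day 2, below the 6.997 of mouse 3 at day 6. The log2 fold change was -3.09 (SE 0.675, adjusted p = 0.00501, edgeR), and it passed in all 9 alternatives that tested it, though without mouse 3 it did not reach the filter on counts. Of the 7 factors tested, 1 passed as lower, where 3.73% of 15819 genes did, and 0 as higher, where 13.6% did. Among those with too few counts to be tested, Id2 and Zbtb16 were also lower in CPM in 5 of 5 mice. For each of them, as for Bcl11b, the exact test of the pairs gave p = 0.0625, the smallest it can give. For Id2 and Zbtb16 the direction in mouse 5 depended on the TMM scaling. As CPM of all counts in genes, mouse 5 went from 1.88 to 2.377 for Id2 and from 1.88 to 4.755 for Zbtb16, while mice 1 to 4 were lower. Nfil3 was lower in 4 mice and higher in 0. Id2 had only 0 to 4 counts at day 6. With at least 10 counts required in every library Bcl11b was not tested, and Rora (log2 fold change -1.66, adjusted p = 0.0236) and Tox (-1.43, adjusted p = 0.0197, edgeR) passed as lower. Gata3 was higher in 4 of 5 mice, with a log2 fold change of 2.35 (SE 0.940, adjusted p = 0.0916, edgeR), which passed without mouse 5 (3.36, adjusted p = 1.09e-06) and with DESeq2 (2.45, adjusted p = 0.0126), and without the mouse as block was -0.11.

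With AR420626, none of the 7 factors tested passed between the days, where 10.0% of 14731 genes passed as higher and 1.14% as lower. Rora was closest, at 33.6, 34.3, 31.0, 44.4 and 17.3 CPM at day 2 and 25.2, 17.0, 15.9, 14.9 and 22.3 CPM at day 6, a log2 fold change of -1.08 (SE 0.430, adjusted p = 0.121, edgeR), and 4 of 5 mice were lower. Bcl11b, which had fallen with vehicle, was at 18.1, 22.6, 17.6, 0 and 14.8 CPM at day 2 and 12.0, 10.9, 9.27, 22.4 and 22.3 at day 6 (log2 fold change -0.31, SE 0.705, adjusted p = 0.825, edgeR). Klf6 and Pparg, other ILC2 factors, passed as higher at day 6 with vehicle (log2 fold changes 4.57 and 3.69, adjusted p = 0.0161 and 0.00852) and with AR420626 (2.67 and 4.07, adjusted p = 0.0323 and 0.00574, edgeR).

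Over the 200 values of the 10 factors in cultured libraries the median raw count was 15.5, 17 were 0 and 69 were under 10, against medians of 45.5 in naïve CC030 and 543 in naïve C57BL/6J. Naïve and cultured CC030 cells came from separate sorts, gates and tables, so their values are set side by side without a test. Gata3 was at 11.8 CPM of counts in genes in naïve CC030 (mean of 3), and Rora at 70.7 to 92.1, while in cultured vehicle libraries of day 6 Rora was at 4.68 to 26.1 and Gata3 at 23.6 to 44.0 on the same scale.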

How the data were processed

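Bulk RNA was measured in 26 libraries of lung ILC2s in 6 groups. The authors deposited raw HTSeq counts per Ensembl gene, made with FastQC, fastp, STAR and HTSeq per the labels. C57BL/6J reads were aligned to mm10, and CC030 reads to an mm9 pseudogenome with conversion to mm10 by lapels. Which gene models they counted over was not stated. The 5 HTSeq summary rows were left out. Symbols, exons and positions came from GENCODE vM21 (GRCm38), which matched 55141 of 55401 identifiers, and promoters from RefSeq (GRCm38.p6).

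Counts were tested with edgeR 4.0.16 in R 4.3.3 (TMM, filterByExpr set to 10 counts and 15 in total, robust quasi-likelihood F-test) with Benjamini-Hochberg adjustment over all genes tested and a threshold of 0.05. Strains were compared without a block and cultured groups with the mouse as block. Same-numbered cultured libraries came from the same mouse per the labels. The 20 correlations of their deviations from the group means ran from -0.42 to 0.493, with 10 above 0.1. Paired log2(CPM + 1) differences were tested by an exact two-sided sign-flip test. Floors are 3 counts and cover counting error only, since no molecular identifiers were used. DESeq2 1.42.0, other scalings and filters, each library left out and mice 1 to 3 alone were alternatives. The tests were tried on simulated data. The naïve libraries are from separate mice, so p-values there measure the spread between mice.

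The 10 factors and all gene lists were chosen with earlier results of these data known. The 10 factors were described over the comparisons, with their paralogues, the E proteins, up to 4 genes of each other list by level in naïve C57BL/6J, and the genes met in the check of positions. In culture, not every factor that did not pass or had too few counts to be tested is given with its values. Results that rest on 2 genes of these lists are not reported here, while counts over whole lists include them.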

Additional observations from a re-analysis of the deposited data

Results flagged for a closer look

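In cultured CC030 libraries, 5 of 40 groups of 5 held a sample whose gap to the others exceeded 0.71 of the group's range. Chance marks about 1 in 20 groups only where the values are independent and normally distributed. Many counts here were low and the same libraries recur over the factors, so that rate is not a benchmark here. Mouse 5 gave 4 of the 5 flagged values. With vehicle at day 2 it was at 365 CPM (TMM) for Gata3, where the others were at 4.02 to 7.23, at 116 for Tox, where the others were at 16.1 to 25.7, and at 2.84 for Gfi1, where the others were at 8.48 to 10.2. With AR420626 at day 2 it was at 29.6 CPM for Gata3, against 3.36 to 8.46. Mouse 2 was at 14.6 CPM for Tcf7 with vehicle at day 6, against 2.91 to 5.44.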

How the results depend on the processing

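Between the strains, Id2, Gata3, Ets1, Rora and Zbtb16 passed in every alternative that tested them. Requiring 10 counts in every library left 3573 genes called (1635 higher and 1938 lower) instead of 27122 (22798 and 4324) and 3 factors instead of 5, because Gata3 and Zbtb16 were no longer tested. Leaving out 1 library gave 5 to 7 factors. Values that did not pass changed sign: Gfi1 was 0.47 with DESeq2, 0.49 with its size factors, 0.77 with the count minimum, 0.25 with the replicate block and -0.91 to 0.05 leaving out a library, Tox was 0.18 with the count minimum, and Tcf7 was -0.56 to 1.71 leaving out a library. The replicate numbers of the strains pair nothing, and the block called 26602 genes and 5 factors.

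For AR420626 at day 6, 1078 genes and 2 factors passed, against 604 to 1221 genes and 1 to 2 factors leaving out a mouse (604 without mouse 1). Only 1 factor passed with DESeq2, without the filter and with the count minimum, and 361 genes and 0 factors with mice 1 to 3 alone, an alternative chosen after seeing the data. DESeq2 split the calls into 192 higher and 1037 lower, against 311 and 767, and the count minimum into 510 and 509. Rora was 0.14 with the count minimum and -0.21 to 0.14 leaving out a mouse, and Tox -0.04 to 0.47. At day 2, DESeq2 called 31 genes and the fit without the filter 15. Changes of sign there were Rora 0.07 (count minimum), 0.10 (mice 1 to 3) and -0.20 to 0.12 leaving out a mouse, Tcf7 0.03 (no block), 0.13 (mice 1 to 3) and -0.45 to 0.14, Tox 0.07 (mice 1 to 3), Gata3 -0.99 to 0.02 (and -2.98 without the block), Gfi1 -0.65 to 0.08 and Zbtb16 -0.72 to 0.01.

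For the difference between the days, 12 genes passed, against 260 with DESeq2, 20 without the filter, 6 with the count minimum, 2 without the block, 59 with mice 1 to 3 and 0 to 33 leaving out a mouse, and 1 factor passed with DESeq2. Gata3 was 0.69 without the block and -2.05 to 0.13 leaving out a mouse, Rora 0.05 with the count minimum, Tcf7 -0.14 without the block, -0.61 with mice 1 to 3 and -0.74 to 0.52, and Tox -0.16 with mice 1 to 3 and -0.37 to 1.02. For vehicle between the days, 2742 genes passed, against 4154 with DESeq2, 4337 with mice 1 to 3 and 994 to 5376 leaving out a mouse, and 2 factors instead of 1 with DESeq2 and mice 1 to 3 (Bcl11b and Gata3) and with the count minimum (Rora at -1.66 and Tox at -1.43, Bcl11b not being tested), or 0 to 2 leaving out a mouse. Gata3 was -0.11 without the block, Gfi1 0.32 with mice 1 to 3 and -0.73 to 0.23, and Tox 0.38 with mice 1 to 3 and -0.67 to 0.62. For AR420626 between the days, 1647 genes passed, against 3637 with DESeq2, 3458 with mice 1 to 3 and 253 to 2772 leaving out a mouse. Rora passed with the count minimum (1 factor, log2 fold change -1.92), Bcl11b was -0.80 to 0.03 and Zbtb16 -0.95 to 0.15 leaving out a mouse. Dropping the mouse as block changed no other call of a factor.

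In naïve C57BL/6J, 6 to 10 factors kept their place in the order when a library was left out. The check of positions gave 7 factors within 5 kb in naïve CC030, against 1 with a window of 2 Mb and 0 with length adjusted in either window. In cultured CC030 it gave 4, against 7 with rank correlation, 2 with a window of 2 Mb and 0 with length adjusted in either window. The causes of these changes were not tested. Low counts also limit the CC030 values, since 69 of 200 cultured values were under 10 counts.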
